A study of Mus musculus with 14 samples.

Results

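The enzymes and transporters that carry glucose through glycolysis and the pentose phosphate pathway were followed as a set of 35 genes in mouse peritoneal macrophages. The genes were chosen by name, with earlier results of these data known, although the rule itself used no measured value. They were 3 glucose transporters, 3 hexokinases, 4 genes of the hexose phosphate steps, 2 regulators of phosphofructokinase, 3 genes of the triose steps, 5 of the energy payoff steps and 4 lactate enzymes and transporters. The rest were the transcription factor Hif1a, 2 pyruvate dehydrogenase kinases, 3 oxidative and 4 non-oxidative enzymes of the pentose phosphate pathway, and the gluconeogenic enzyme Fbp1. Probes were assigned to a gene through their RefSeq accession. All 35 genes were measured, with 52 probes, among 20342 genes tested. For 34 of them the probe used was well above background on all 14 arrays. For Ldha it was so on 13, because the spot on IL-4C array 4 had been marked as an outlier at scanning and was not used, which leaves n = 3 in that group.

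RNA came from cells of C57BL/6 mice that had been sorted for CD11b and for the macrophage surface protein encoded by Adgre1, and each sample was hybridised to 1 single-colour array. Mice of the PBS group (3 arrays) had received the vehicle by their treatment label, while the sample titles call them untreated, and their cells are the macrophages resident in the cavity. The IL-4C group (4 arrays) had received 5 µg of interleukin 4 bound to 25 µg of the antibody 11B11, a complex that prolongs the action of this cytokine. The Thio group (3 arrays) had received 2 ml of 4% thioglycollate medium, an irritant that recruits monocytes from blood, and the Thio+IL-4C group (4 arrays) had received both. All injections were into the peritoneum. Age, sex and the time from injection to harvest are not given in the sources used here. The labels name 2 animal facilities without saying which sample came from which, and do not state that replicates were different animals. The p-values therefore reflect sample-to-sample spread, part of which may be technical. RNA was taken from whole sorted populations, where fewer cells of a type and less RNA per cell cannot be told apart.

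Glycolysis splits glucose into pyruvate: transporters admit the sugar, hexokinases trap it by phosphorylation, phosphofructokinase commits it, and the payoff enzymes recover ATP. Pyruvate is then reduced to lactate and exported, or burned in mitochondria unless pyruvate dehydrogenase kinases block its entry, while the pentose phosphate pathway diverts glucose 6-phosphate to make NADPH and ribose. In macrophages a glycolytic state driven by HIF-1 is best known from inflammatory activation, and the response to interleukin 4 is best known for mitochondrial respiration, although glucose is also used in it.

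Signals are given as levels, meaning log2 of the processed spot intensity minus log2 of the 75th percentile of its array, so that a level of 0 is that percentile. A level has meaning only against the same probe on other arrays. Differences are log2 differences of levels and are given with their fitted standard error (SE), and a gene is called where limma's Benjamini-Hochberg adjusted p over all 20342 genes was under 0.05, two-sided. The 75th percentile ran from 1275.4 to 1818.5 on PBS arrays and from 3058.7 to 3883.4 on IL-4C arrays, so array brightness moved with treatment there, and its part in the results was not tested. It was 2294.4 to 3578.3 in Thio and 2044.3 to 2549.4 in Thio+IL-4C. All PBS and IL-4C arrays and 1 Thio array (Thio 1) lay on slide 1, and the other 2 Thio arrays and all Thio+IL-4C arrays on slide 2. Over all genes Thio 1 correlated at r of 0.849 to 0.866 with the other 2 Thio arrays, which correlated at 0.985 with each other, and at 0.918 to 0.931 with the PBS arrays. Results that rest on Thio 1 or on slide are therefore given with and without them. The sort markers Adgre1 and Itgam, which encodes CD11b, each had a probe well above background on every array. Adgre1 ranged from 6.44 to 6.61 in PBS and from 3.44 to 3.70 in Thio+IL-4C.

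The stretches of 250 bases before the start of 6 of the genes are shown because these genes had among the largest effects of IL-4C in the set or, for Slc2a1, Aldoc and Pgam1, the 3 most negative interactions. They are from RefSeq on mouse assembly GRCm38.p6, printed 5′ to 3′ on the strand of the gene. Capitals mark ACGTG or GCGTG on either strand, which on the opposite strand reads CACGT or CACGC and is the core of the site that HIF binds. The Slc2a1 stretch is chr4:119108495-119108744 on the plus strand, that of Pfkfb4 is chr9:108991652-108991901 (plus), that of Aldoc, for which 2 starts are listed, is chr11:78322823-78323072 (plus), and that of Pgam1 is chr19:41911621-41911870 (plus). The Ldhb stretch is chr6:142507958-142508207 and that of Fbp1 is chr13:62888283-62888532, both on the minus strand.
Slc2a1: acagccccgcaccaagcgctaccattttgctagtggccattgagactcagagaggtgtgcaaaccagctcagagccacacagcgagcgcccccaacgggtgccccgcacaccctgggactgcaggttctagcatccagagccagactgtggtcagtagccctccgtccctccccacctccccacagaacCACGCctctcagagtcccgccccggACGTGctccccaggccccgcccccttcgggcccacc
Pfkfb4: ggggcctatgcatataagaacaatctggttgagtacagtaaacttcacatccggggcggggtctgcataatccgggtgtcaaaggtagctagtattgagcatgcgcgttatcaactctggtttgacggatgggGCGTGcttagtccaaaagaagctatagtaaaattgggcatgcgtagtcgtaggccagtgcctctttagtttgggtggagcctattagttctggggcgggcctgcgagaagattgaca
Aldoc: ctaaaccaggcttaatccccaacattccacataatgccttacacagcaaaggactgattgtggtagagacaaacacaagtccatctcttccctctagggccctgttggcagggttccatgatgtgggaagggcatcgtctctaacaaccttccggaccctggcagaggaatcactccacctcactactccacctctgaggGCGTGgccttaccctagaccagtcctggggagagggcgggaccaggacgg
Pgam1: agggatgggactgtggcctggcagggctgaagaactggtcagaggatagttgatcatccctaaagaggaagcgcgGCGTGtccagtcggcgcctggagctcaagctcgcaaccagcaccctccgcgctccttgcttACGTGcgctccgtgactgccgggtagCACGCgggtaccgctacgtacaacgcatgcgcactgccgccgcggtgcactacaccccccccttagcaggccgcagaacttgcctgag
Ldhb: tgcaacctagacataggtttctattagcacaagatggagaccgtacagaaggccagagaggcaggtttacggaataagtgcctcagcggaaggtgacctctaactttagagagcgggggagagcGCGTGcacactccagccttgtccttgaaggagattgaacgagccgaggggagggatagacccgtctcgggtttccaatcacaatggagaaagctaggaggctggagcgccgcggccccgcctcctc
Fbp1: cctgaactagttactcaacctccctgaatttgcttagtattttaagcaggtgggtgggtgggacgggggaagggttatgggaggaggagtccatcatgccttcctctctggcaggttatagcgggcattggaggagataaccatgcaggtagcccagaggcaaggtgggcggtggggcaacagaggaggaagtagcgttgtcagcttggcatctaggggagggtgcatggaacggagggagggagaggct

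The core was found once or more in 30 of 34 genes of the set (88.2%) when the window ran from 250 bases before to 50 bases after any listed start, against 55% of the 16133 tested genes with a promoter in the table. Slc2a3 had no entry. With the most upstream start alone the count was 27 of 34 (79.4%) against 51.8%. Pgam1 holds 3 copies and Slc2a1 holds 2 in the stretches shown, while Fbp1, Gpi1, Tpi1 and Rpe had none in the window. CACGTG, an E-box that contains the ACGTG core, was in 5 of 34 (14.7%; 9.45% of tested genes): Hif1a, Ldha, Pfkfb3, Pfkm and Slc16a1. TTC and GAA set 4 bases apart, TTCNNNNGAA, the form of site that STAT6 binds, was also in 5 (14.7%; 7.22%): Gpi1, Hif1a, Hk3, Ldha and Pgd. A match describes the letters of the window and is no evidence of binding.

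In resident cells the pathway was mostly higher after IL-4C. Of the 35 genes 19 were called higher and 4 lower in IL-4C versus PBS, where 16.9% of all genes tested were called higher and 15.3% lower (32.2% in either direction). The median difference of the set was 0.51, against -0.01 over all genes, and 10 genes rose and 2 fell by 2-fold or more. Both groups lay on slide 1, so this comparison is within one slide. In elicited cells, Thio+IL-4C versus Thio, 16 were called higher and 7 lower, where 16.2% and 23.1% of all genes were called in those directions (39.4% in either). The medians were 0.33 and 0.03, with 9 genes higher and 3 lower by 2-fold or more. Without Thio 1 these counts were 20 and 7 (4219 and 4334 of all genes), and within slide 2 they were 18 and 6 (4310 and 4080 of all genes). The plot of the 2 effects of IL-4C against each other shows that the set did not move as 1 block.

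**Figure D1:**
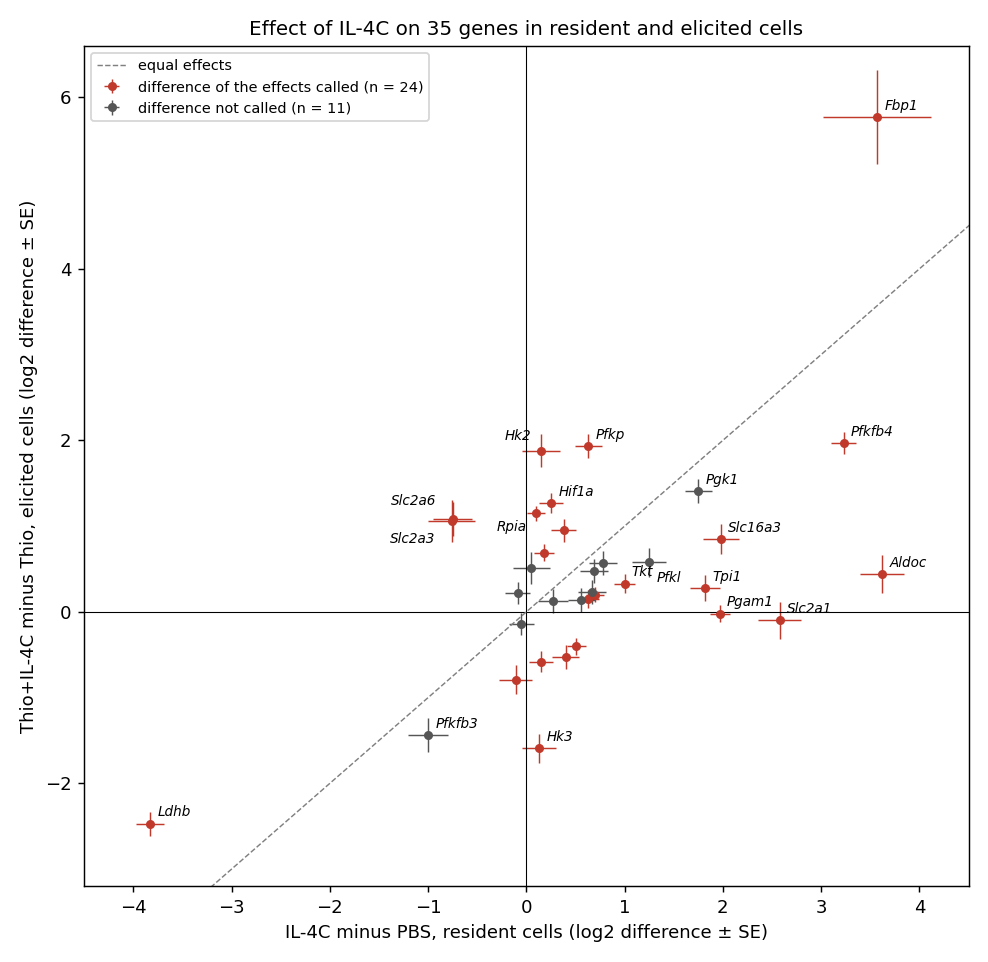
Each point is 1 of the 35 genes; the horizontal axis is the log2 difference IL-4C minus PBS in resident cells and the vertical axis Thio+IL-4C minus Thio in elicited cells, with bars of ±1 SE and a dashed line of equal effects. Red marks the 24 genes whose 2 effects differed by the interaction test. Aldoc, Slc2a1, Pgam1 and Tpi1 lie far to the right near a vertical value of 0, Hk2, Hif1a and Rpia lie near a horizontal value of 0, Fbp1 is at the top right and Ldhb at the bottom left.

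Sorted by what IL-4C did in each setting, 10 genes were called higher in both (7.35% of all genes tested were): Hk1, Gpi1, Pfkl, Pfkp, Pfkfb4, Pgk1, Pkm, Slc16a3, Tkt and Fbp1. Pfkfb3 and Ldhb were called lower in both (7.16%). Slc2a3 and Slc2a6 were called lower in resident and higher in elicited cells (2.14%), and Taldo1 the other way (3.25%). A further 8 were called higher in resident cells and not called in elicited cells (6.27%): Slc2a1, Aldoa, Aldoc, Tpi1, Pgam1, Pdk1, Pdk3 and Pgd. For 6 of these the difference between the effects was itself called, and for Aldoa and Pdk1 it was not. Hk2, Eno1, Hif1a and Rpia were called higher in elicited cells alone (6.75%), and Hk3, Pfkm, Slc16a1 and G6pdx were called lower there alone, with the difference of effects called for all 8. Gapdh, Ldha, Pgls and Rpe were called in neither, as were 48.3% of all genes. For Gapdh and Ldha this holds for the brightest probe, and other probes of both genes were called higher in both settings.

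The difference of the 2 effects, the interaction, was called for 24 of the 35 genes, 10 upward and 14 downward, where 12.7% of all genes were called upward and 19.9% downward (32.7% in either direction). Its median over the set was -0.42, against -0.05 over all genes. Without Thio 1 the counts were 12 and 14 (3845 and 4309 of all genes).

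**Figure D2:**
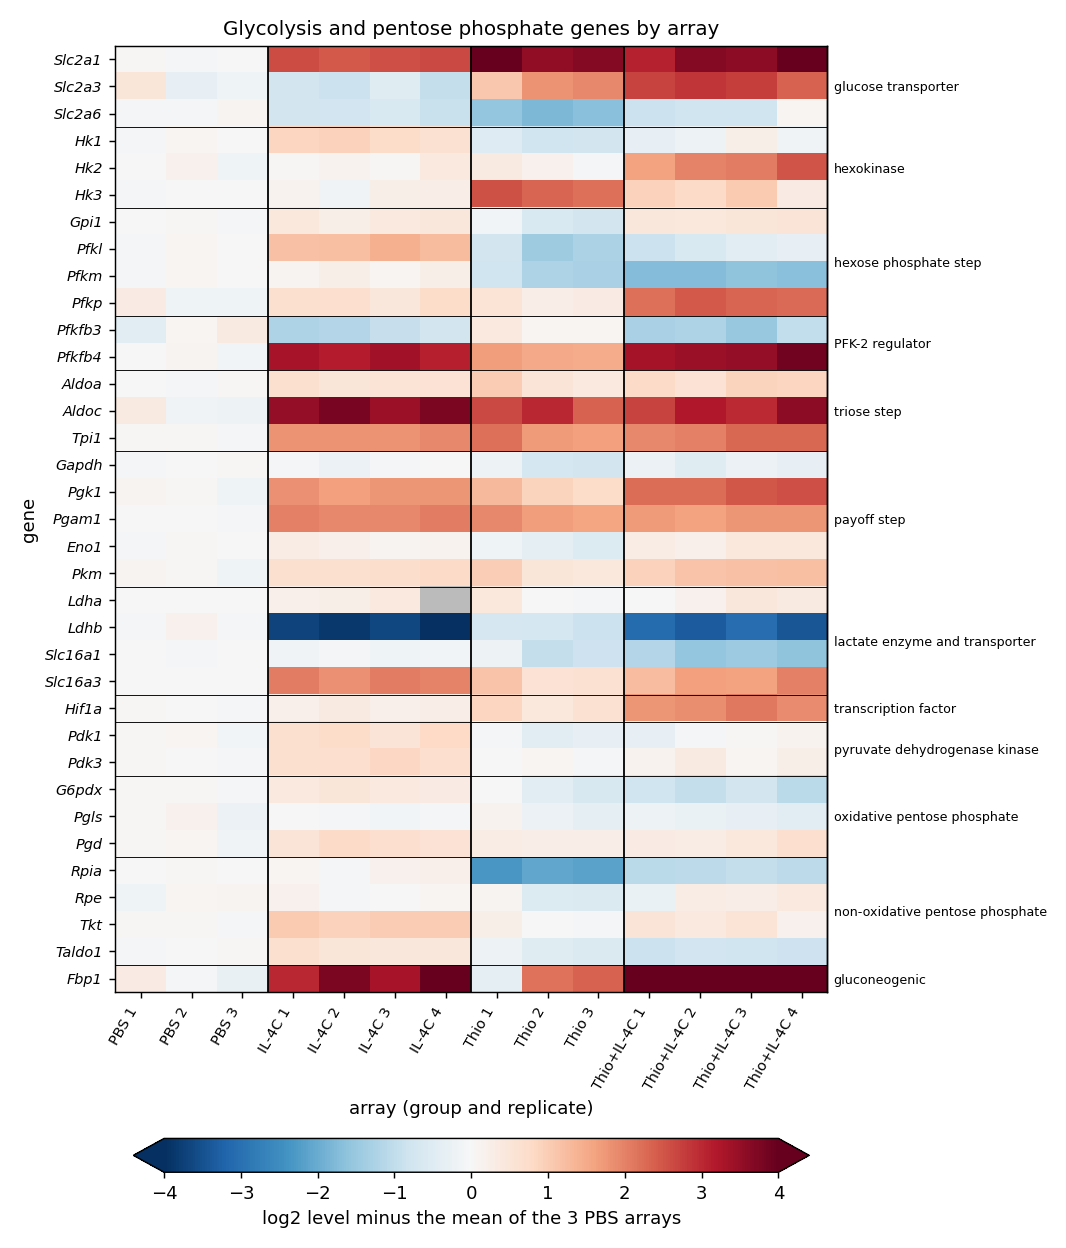
Heatmap of the 35 genes (rows, ordered by role) on the 14 arrays (columns, by group): colour is the log2 level minus the mean of the 3 PBS arrays, and grey is the Ldha spot that was left out. Slc2a1, Aldoc and Pfkfb4 are above PBS on all 11 treated arrays, Ldhb is far below it on all 8 arrays with IL-4C, and Rpia is below it on the 7 arrays with thioglycollate.

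The glucose transporters each followed a course of their own. Slc2a1 encodes GLUT1, the basal glucose carrier of many cells. Its levels were -0.61, -0.70 and -0.65 in PBS, 1.97, 1.80, 1.93 and 2.00 in IL-4C, 3.34, 2.90 and 3.03 in Thio, and 2.41, 3.01, 2.92 and 3.61 in Thio+IL-4C. All 11 treated arrays thus lay above all 3 PBS arrays, and the 2 elicited groups overlapped. It rose by 2.58 ± 0.22 (SE) in IL-4C versus PBS (5.97-fold; adjusted p = 3.2e-06) and by 3.74 ± 0.23 in Thio versus PBS (13.4-fold; adjusted p = 2.0e-07). In elicited cells the effect of IL-4C was -0.10, with a 95% interval of -0.58 to 0.38 (adjusted p = 0.71), and the interaction was -2.68 ± 0.31 (adjusted p = 5.7e-05).

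Slc2a3, the high-affinity carrier GLUT3, went down in resident and up in elicited cells. The PBS levels were -3.61, -4.43 and -4.27 and the IL-4C levels -4.85, -4.96, -4.59 and -5.06. Thio arrays gave -3.01, -2.30 and -2.19, and Thio+IL-4C arrays -1.41, -1.25, -1.35 and -1.73. The 4 groups did not overlap, in the order IL-4C, PBS, Thio, Thio+IL-4C. The fall after IL-4C in resident cells was -0.76 ± 0.24 (adjusted p = 0.028); it was -0.51 (adjusted p = 0.14) without PBS array 1, and was also lost without IL-4C array 1, 2 or 4 (adjusted p = 0.054, 0.064 and 0.073). The rise in elicited cells was 1.06 ± 0.24 (2.09-fold; adjusted p = 0.0036), and the interaction 1.83 ± 0.34 (adjusted p = 0.0014). Slc2a6, a transporter of internal membranes, showed the same pair of signs from another starting point. It stood at 4.24, 4.27 and 4.44 in PBS, 3.58, 3.55, 3.71 and 3.43 in IL-4C, 2.76, 2.53 and 2.64 in Thio, and 3.47, 3.52, 3.51 and 4.38 in Thio+IL-4C. PBS was highest on average and Thio lowest, without overlap between IL-4C and PBS or between Thio+IL-4C and Thio, and Thio+IL-4C array 4 lay in the range of PBS. The effects of IL-4C were -0.75 ± 0.20 in resident cells (adjusted p = 0.011; -0.44 and 0.11 in the authors' deposited values) and 1.08 ± 0.20 in elicited cells (adjusted p = 9.5e-04), with an interaction of 1.83 ± 0.28 (adjusted p = 4.0e-04). A second, dimmer Slc2a6 probe gave -0.50 in resident cells, which was not called (adjusted p = 0.09). It gave 1.17 in elicited cells and an interaction of 1.67, both called.

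Hexokinases phosphorylate glucose on entry, and the 3 isoforms separated the 4 groups differently. Hk1, the widely expressed isoform, rose after IL-4C in both settings, by 0.78 ± 0.14 in resident cells (adjusted p = 8.1e-04) and 0.57 ± 0.14 in elicited cells (adjusted p = 0.0056), and the interaction was not called (-0.21; 95% interval -0.63 to 0.21). A second, dimmer Hk1 probe did not share the resident rise (-0.06) and gave 0.83 in elicited cells. Its interaction of 0.89 was called (adjusted p = 0.0051), so the probes of Hk1 disagree on whether the effects differed. Hk2, the inducible isoform that HIF is known to drive, gave 0.61, 0.74 and 0.40 in PBS, 0.62, 0.72, 0.64 and 0.97 in IL-4C, 0.93, 0.77 and 0.53 in Thio, and 2.20, 2.58, 2.63 and 3.09 in Thio+IL-4C. The first 3 groups overlapped, and all 4 Thio+IL-4C arrays lay above every other array. The rise in elicited cells was 1.88 ± 0.19 (3.68-fold; adjusted p = 9.5e-06), against 0.15 ± 0.19 in resident cells (adjusted p = 0.64), and the interaction was 1.73 ± 0.27 (adjusted p = 4.4e-04). Hk3, an isoform typical of myeloid cells, behaved in the opposite way. Its levels were 1.99, 2.05 and 2.04 in PBS, 2.18, 1.88, 2.27 and 2.30 in IL-4C, 4.56, 4.34 and 4.23 in Thio, and 2.94, 2.80, 3.06 and 2.34 in Thio+IL-4C. It was highest with thioglycollate alone, by 2.35 ± 0.18 over PBS (5.10-fold; adjusted p = 1.1e-06). It fell by -1.59 ± 0.17 when IL-4C was added (3.01-fold lower; adjusted p = 1.4e-05), and the resident effect was 0.13 ± 0.17 (adjusted p = 0.65), an interaction of -1.72 ± 0.24 (adjusted p = 2.0e-04).

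The next steps convert glucose 6-phosphate to fructose 6-phosphate, by the isomerase Gpi1, and commit it to glycolysis, by the phosphofructokinases. Gpi1 rose by 0.95 ± 0.13 after IL-4C in elicited cells (1.93-fold; adjusted p = 1.3e-04). Its resident rise of 0.38 ± 0.13 (adjusted p = 0.048) was no longer called when any single PBS or IL-4C array was left out (adjusted p from 0.051 to 0.14), and its interaction of 0.57 (adjusted p = 0.036) was lost without any one of 12 of the 14 arrays. The other Gpi1 probes gave called resident rises of 0.51 and 0.57 (adjusted p = 0.018 and 0.009). Their interactions were 0.60, called (adjusted p = 0.043), and 0.43, not called (adjusted p = 0.13). Separate genes encode the phosphofructokinase subunits, for liver (Pfkl), muscle (Pfkm) and platelet (Pfkp) forms, all of which macrophages can carry. Pfkl levels were 2.13, 2.29 and 2.24 in PBS, 3.38, 3.41, 3.63 and 3.47 in IL-4C, 1.50, 0.79 and 0.94 in Thio, and 1.36, 1.60, 1.80 and 1.89 in Thio+IL-4C. The resident groups did not overlap with each other or with the elicited groups, which overlapped. Pfkl rose by 1.25 ± 0.17 in resident cells (2.39-fold; adjusted p = 1.3e-04) and by 0.58 ± 0.17 in elicited cells (adjusted p = 0.018; 0.44 and 0.068 without Thio 2, 0.52 and 0.06 without Thio 3, 0.51 and 0.05 without Thio+IL-4C 4).

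Pfkp gave 0.98, 0.45 and 0.48 in PBS, 1.27, 1.32, 1.1 and 1.38 in IL-4C, 1.19, 0.90 and 0.97 in Thio, and 2.83, 3.10, 2.98 and 2.90 in Thio+IL-4C. The Thio+IL-4C arrays stood apart from the others. The rises after IL-4C were 0.63 ± 0.14 in resident cells (1.55-fold; adjusted p = 0.0047) and 1.93 ± 0.14 in elicited cells (3.81-fold; adjusted p = 8.7e-07), with an interaction of 1.30 ± 0.20 (adjusted p = 4.6e-04). A second Pfkp probe gave smaller values that were not called, 0.17 and 0.67, so the change rests on the brighter probe. Pfkm fell after IL-4C in elicited cells by -0.58 ± 0.12 (adjusted p = 0.0021) and gave 0.15 in resident cells (adjusted p = 0.41). In Thio+IL-4C versus IL-4C Pfkl was lower by 3.51-fold, Pfkm lower by 3.60-fold and Pfkp higher by 3.21-fold (adjusted p = 2.3e-06, 1.1e-07 and 9.7e-07), and with slide as a block these differences were -1.18, -1.37 and 1.94, all called. The second Pfkp probe gave -0.23 in this comparison (adjusted p = 0.48), so the probes of Pfkp differ in sign there.

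Pfkfb3 and Pfkfb4 encode bifunctional enzymes (PFK-2) that make and remove the sugar bisphosphate which activates phosphofructokinase. Their genes moved in opposite directions after IL-4C. Pfkfb4 levels were 0.68, 0.82 and 0.59 in PBS, 3.99, 3.85, 4.07 and 3.80 in IL-4C, 2.38, 2.21 and 2.18 in Thio, and 4.02, 4.14, 4.20 and 4.55 in Thio+IL-4C. Every IL-4C-treated array lay above every array without it. Pfkfb4 rose by 3.23 ± 0.13 in resident cells (9.40-fold; adjusted p = 1.3e-08) and by 1.97 ± 0.13 in elicited cells (3.92-fold; adjusted p = 4.1e-07). The interaction was -1.26 ± 0.19 (adjusted p = 3.2e-04), but it was 0.07 (adjusted p = 0.88) for the mean of the gene's 2 probes, since the second probe, well above background on 11 arrays, rose by 2.70 in resident and 4.10 in elicited cells. Pfkfb3 gave 1.32, 1.82 and 2.11 in PBS, 0.53, 0.59, 0.84 and 1.03 in IL-4C, 2.15, 1.82 and 1.82 in Thio, and 0.46, 0.52, 0.22 and 0.77 in Thio+IL-4C. Here every IL-4C-treated array lay below every array without it. The falls were -1.0 ± 0.20 (2.00-fold; adjusted p = 0.0021) and -1.44 ± 0.20 (2.71-fold; adjusted p = 1.3e-04), and the interaction was not called (-0.44; 95% interval -1.06 to 0.19). A second, dimmer Pfkfb3 probe gave -2.0 in resident cells, -0.66 in elicited cells (adjusted p = 0.083) and an interaction of 1.34 that was called (adjusted p = 0.022).

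**Figure D3:**
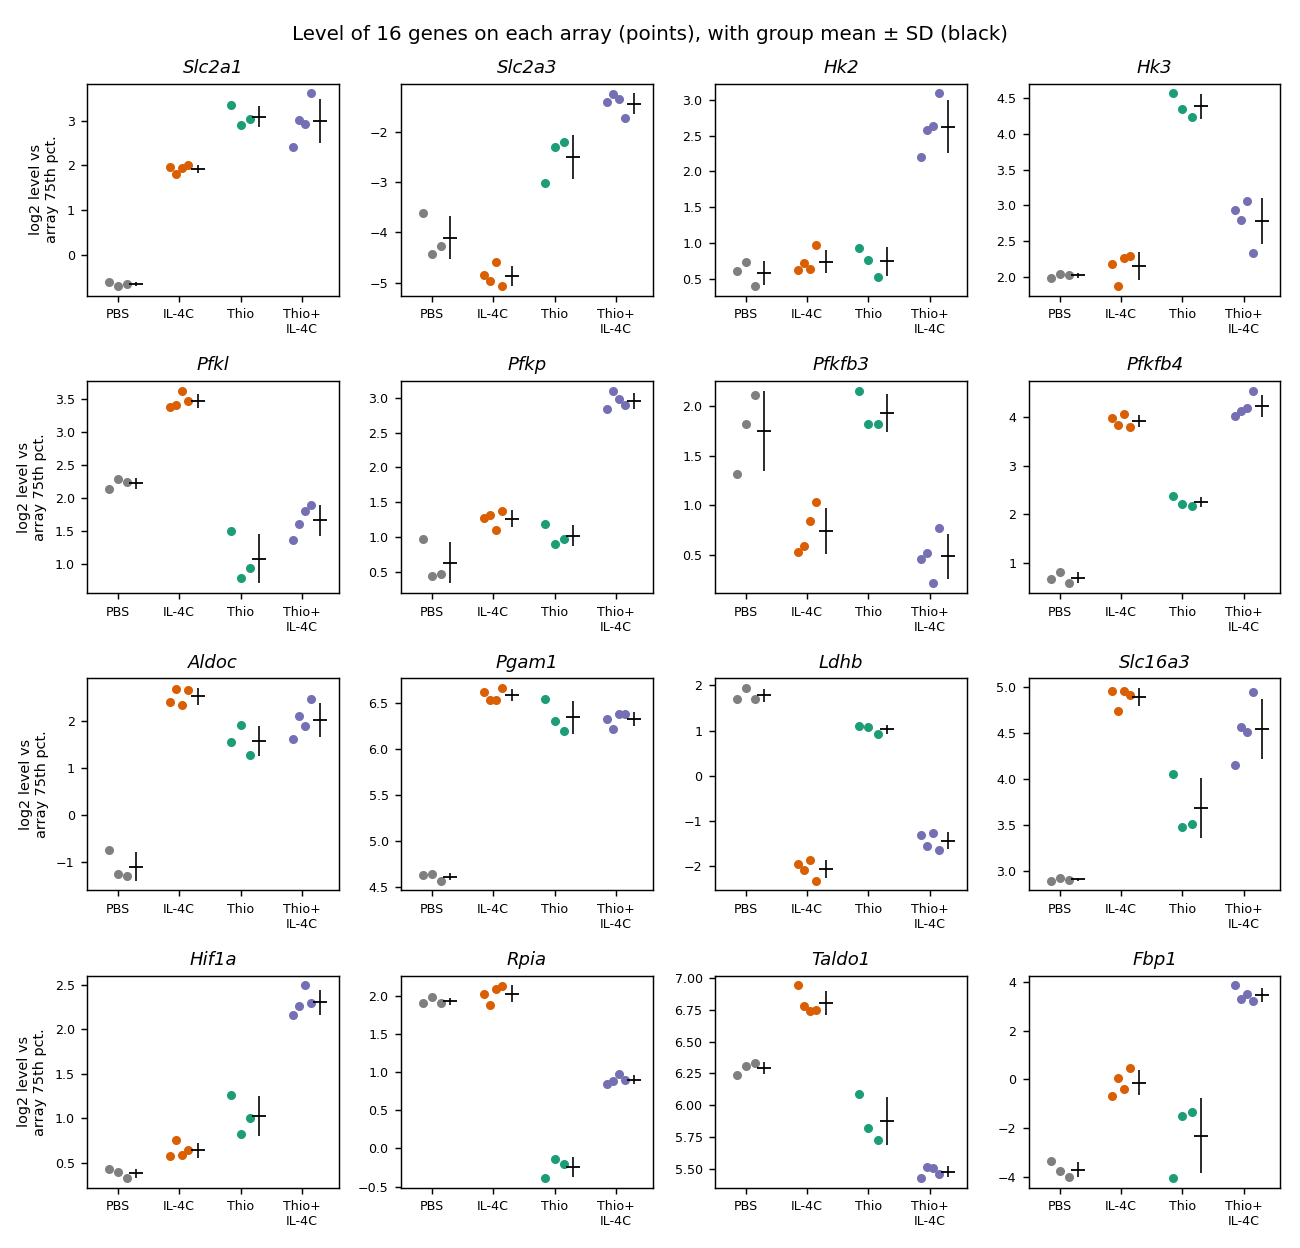
Level of 16 of the genes on each array (points, log2 relative to the 75th percentile of the array) in the 4 groups, with the group mean ± SD; n is 3 for PBS and Thio and 4 for IL-4C and Thio+IL-4C. Hk2, Pfkp and Hif1a are high on the 4 Thio+IL-4C arrays alone, Hk3 peaks in Thio, Slc2a1 and Pgam1 are low in PBS alone, and Ldhb is low in both groups given IL-4C.

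Aldolases cut fructose bisphosphate into trioses, and triosephosphate isomerase interconverts the trioses. All 3 genes of these steps rose in IL-4C versus PBS and none was called in Thio+IL-4C versus Thio. Aldoc, the brain-type aldolase, gave -0.75, -1.25 and -1.29 in PBS, 2.41, 2.69, 2.34 and 2.66 in IL-4C, 1.55, 1.91 and 1.27 in Thio, and 1.61, 2.10, 1.89 and 2.47 in Thio+IL-4C. PBS was lowest without overlap, and the elicited groups overlapped. Its resident rise of 3.62 ± 0.22 (12.3-fold; adjusted p = 2.7e-07) was the largest of the set in that comparison. The elicited effect was 0.44 ± 0.22 (adjusted p = 0.14), and the interaction of -3.18 ± 0.31 (adjusted p = 1.8e-05) was the most negative of the set. Tpi1 rose by 1.82 ± 0.15 in resident cells (3.54-fold; adjusted p = 2.3e-06) and gave 0.28 ± 0.15 in elicited cells (adjusted p = 0.16; 0.46, called, without Thio 1), with an interaction of -1.55 ± 0.21 (adjusted p = 1.8e-04). The second Tpi1 probe, at 0.59, was called in elicited cells. Aldoa, the main aldolase of most cells, rose by 0.56 ± 0.14 in resident cells (adjusted p = 0.0086), against 0.14 in elicited cells (adjusted p = 0.43; 0.33, called, without Thio 1).

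In the payoff steps Pgk1 and Pgam1 had the largest changes. Pgam1, the phosphoglycerate mutase, gave 4.63, 4.64 and 4.57 in PBS, 6.62, 6.53, 6.53 and 6.66 in IL-4C, 6.54, 6.30 and 6.19 in Thio, and 6.32, 6.22, 6.38 and 6.38 in Thio+IL-4C. PBS was low and the 3 treated groups were high and close together. It rose by 1.97 ± 0.10 after IL-4C in resident cells (3.92-fold; adjusted p = 5.8e-08). In elicited cells the effect was -0.02, with a 95% interval of -0.23 to 0.20, and the interaction was -1.99 ± 0.14 (adjusted p = 1.6e-06). Pgk1, a phosphoglycerate kinase gene that HIF is known to induce, kept its response in both settings, at 1.75 ± 0.14 in resident cells (3.37-fold; adjusted p = 2.5e-06) and 1.41 ± 0.14 in elicited cells (2.66-fold; adjusted p = 1.1e-05). Its interaction was not called (-0.34; 95% interval -0.79 to 0.11). Pkm, the pyruvate kinase of macrophages, rose by 0.69 ± 0.14 in resident cells (adjusted p = 0.0022) and by 0.48 ± 0.14 in elicited cells (adjusted p = 0.018; 0.40 and 0.06 without Thio 2, 0.37 and 0.071 without Thio 3).

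Eno1, an enolase, rose in elicited cells by 0.69 ± 0.10 (adjusted p = 1.8e-04) and gave 0.18 ± 0.10 in resident cells (adjusted p = 0.22). Its interaction of 0.51 (adjusted p = 0.017) was -0.02 after quantile normalization and -0.04 in the authors' deposited values. Gapdh, the dehydrogenase often taken as a stable reference, had 7 probes that disagreed. The brightest gave -0.09 in resident cells (adjusted p = 0.71), and the other 6 gave rises of 0.58 to 0.77, all called. Quantile normalization turned the brightest probe to 0.53 there (adjusted p = 9.7e-05). In elicited cells the brightest probe gave 0.22 (adjusted p = 0.20), and 0.39, called, without Thio 1. Other probes gave called rises of 0.97, 0.55, 0.87, 0.73 and 0.72 in elicited cells, and one gave 0.19, not called (adjusted p = 0.34). The processed intensity of the brightest probe averaged 236788 in PBS and 462928 in IL-4C, and that of the dimmest 33251 and 108541, before any scaling between arrays. Gapdh was thus not a fixed point in these data, and no statement here uses it as one.

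The largest fall of the set after IL-4C, in both settings, was in a lactate dehydrogenase subunit. Ldhb, the heart-type subunit, stood at 1.69, 1.94 and 1.70 in PBS, -1.94, -2.08, -1.87 and -2.32 in IL-4C, 1.09, 1.07 and 0.92 in Thio, and -1.30, -1.56, -1.26 and -1.63 in Thio+IL-4C. The groups did not overlap, and both groups given IL-4C lay far below both without it. The falls were -3.83 ± 0.14 in resident cells (14.2-fold lower; adjusted p = 5.1e-09) and -2.47 ± 0.14 in elicited cells (5.53-fold lower; adjusted p = 9.7e-08), with an interaction of 1.36 ± 0.19 (adjusted p = 2.4e-04). Ldha, the muscle-type subunit that favours lactate formation, was called in no comparison on its brightest probe (0.27 in resident and 0.13 in elicited cells; adjusted p = 0.24 and 0.47). Its 2 other probes gave called rises of 0.38 and 0.74 in resident cells and 0.64 and 0.53 in elicited cells. The lactate exporter gene Slc16a3 (MCT4) gave 2.90, 2.93 and 2.91 in PBS, 4.95, 4.74, 4.95 and 4.91 in IL-4C, 4.06, 3.48 and 3.51 in Thio, and 4.15, 4.56, 4.51 and 4.94 in Thio+IL-4C. PBS was lowest, and Thio lay between it and the groups given IL-4C. It rose by 1.98 ± 0.18 in resident cells (3.94-fold; adjusted p = 5.9e-06) and by 0.85 ± 0.18 in elicited cells (1.81-fold; adjusted p = 0.0027), with an interaction of -1.12 ± 0.26 (adjusted p = 0.0055). Slc16a1 (MCT1), which carries lactate in either direction, fell in elicited cells by -0.79 ± 0.17 (adjusted p = 0.0024) and gave -0.11 in resident cells (adjusted p = 0.71). Its interaction of -0.68 (adjusted p = 0.045) was lost without any one of 10 arrays outside Thio, at adjusted p of 0.063 to 0.087.

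Hif1a encodes the oxygen-regulated subunit of HIF-1, whose activity is set mainly by protein stability. Its levels were 0.43, 0.40 and 0.33 in PBS, 0.58, 0.76, 0.59 and 0.64 in IL-4C, 1.26, 0.82 and 1.0 in Thio, and 2.16, 2.26, 2.49 and 2.29 in Thio+IL-4C. The 4 groups rose in that order without overlap. In resident cells the effect of IL-4C was 0.25 ± 0.12 and was not called (adjusted p = 0.14). It was called with the arrays of slide 1 alone (adjusted p = 0.024) and, at 0.52, in the authors' deposited values (adjusted p = 0.018). In elicited cells it was 1.27 ± 0.12 (2.42-fold; adjusted p = 4.7e-06), and the interaction was 1.02 ± 0.17 (adjusted p = 6.1e-04). The pyruvate dehydrogenase kinase genes rose in resident cells, Pdk1 by 0.67 ± 0.14 (adjusted p = 0.0023) and Pdk3 by 0.70 ± 0.09 (adjusted p = 1.2e-04). In elicited cells neither was called (0.23 and 0.20; adjusted p = 0.20 and 0.11). The interaction was called for Pdk3 (-0.49; adjusted p = 0.014) and not for Pdk1 (-0.44; 95% interval -0.86 to -0.01; adjusted p = 0.11).

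Of the 7 enzymes of the pentose phosphate pathway 3 were called higher in IL-4C versus PBS, and 2 higher and 2 lower in Thio+IL-4C versus Thio. Over all genes 16.9% were called higher in the first comparison, and 16.2% higher and 23.1% lower in the second, so the counts in elicited cells are near the background. In the oxidative branch, which makes NADPH, Pgd rose in resident cells by 0.63 ± 0.11 (adjusted p = 8.0e-04) and gave 0.15 in elicited cells (adjusted p = 0.29). Its interaction of -0.48 (adjusted p = 0.034) was lost without any one of 8 arrays, at adjusted p of 0.05 to 0.089. G6pdx, the gate enzyme of the pathway, missed the threshold in resident cells (0.40; adjusted p = 0.051), but passed it with the arrays of slide 1 alone (adjusted p = 0.0027). In elicited cells it fell (-0.53 ± 0.14; adjusted p = 0.012; -0.34 and 0.095 within slide 2), an interaction of -0.93 ± 0.20 (adjusted p = 0.0042). Pgls, the lactonase between them, was called in no comparison, with resident and elicited effects of -0.05 and -0.14.

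In the non-oxidative branch, which makes and interconverts ribose phosphates, Tkt and Taldo1 rose in resident cells. Tkt, the transketolase, rose by 1.0 ± 0.11 there (2.00-fold; adjusted p = 2.4e-05) and by 0.33 ± 0.11 in elicited cells (adjusted p = 0.031), where leaving out either Thio 2 or 3 or Thio+IL-4C 1, 2 or 3 ended the call (adjusted p = 0.056 to 0.10). Taldo1, the transaldolase, gave 6.24, 6.31 and 6.33 in PBS, 6.94, 6.78, 6.74 and 6.75 in IL-4C, 6.09, 5.82 and 5.73 in Thio, and 5.43, 5.52, 5.51 and 5.46 in Thio+IL-4C. The 4 groups did not overlap, and IL-4C went with the highest group in resident cells and the lowest in elicited cells. The effects were 0.51 ± 0.10 (adjusted p = 0.0018) and -0.40 ± 0.10 (adjusted p = 0.0073), with an interaction of -0.91 ± 0.14 (adjusted p = 4.5e-04). Rpia, which makes ribose 5-phosphate, gave 1.90, 1.98 and 1.90 in PBS, 2.02, 1.88, 2.09 and 2.12 in IL-4C, -0.39, -0.14 and -0.20 in Thio, and 0.84, 0.88, 0.98 and 0.89 in Thio+IL-4C. The resident groups overlapped and were high, Thio was low, and Thio+IL-4C lay between. IL-4C raised it by 1.15 ± 0.09 in elicited cells (2.21-fold; adjusted p = 1.9e-06) and gave 0.10 ± 0.09 in resident cells (adjusted p = 0.53), an interaction of 1.05 ± 0.13 (adjusted p = 1.1e-04). Rpe, the epimerase, was called in no comparison; its elicited effect of 0.51 (adjusted p = 0.053) was 0.74 and called without Thio 1.

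Fbp1, fructose bisphosphatase, runs the phosphofructokinase step backwards for gluconeogenesis. It had the largest difference of the set. Its levels were -3.36, -3.75 and -3.99 in PBS, -0.68, 0.07, -0.39 and 0.47 in IL-4C, -4.05, -1.52 and -1.33 in Thio, and 3.86, 3.29, 3.52 and 3.23 in Thio+IL-4C. Both groups given IL-4C lay above both without it, and the Thio array on slide 1 lay below the PBS arrays while the other 2 lay above them. The rises were 3.57 ± 0.55 in resident cells (11.9-fold; adjusted p = 3.1e-04) and 5.77 ± 0.55 in elicited cells (54.7-fold; adjusted p = 6.0e-06). With slide as a block the elicited rise was 4.90. The interaction of 2.21 ± 0.78 (adjusted p = 0.048) was lost without any one of 10 arrays, all but the Thio arrays and IL-4C array 4 (adjusted p = 0.064 to 0.11).

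Elicited and resident cells were compared without and with IL-4C. In Thio versus PBS 12 of the 35 genes were called higher and 11 lower, where 20.2% of all genes tested were called higher and 24.3% lower (44.5% in either direction). The median was 0.11 against -0.09 over all genes. In Thio+IL-4C versus IL-4C 11 were called higher and 12 lower, where 27.9% and 42.2% of all genes were called (70.1% in either direction). These comparisons cross slides, and only Thio has arrays on both. A slide block therefore takes the gap between Thio 1 and the other 2 Thio arrays as the slide effect. With it Thio versus PBS becomes Thio 1 alone against PBS, and Thio+IL-4C versus IL-4C is shifted by that gap, so the block rests on the array that stood apart. With slide as a block 17 of the 23 Thio versus PBS calls and 15 of the 23 Thio+IL-4C versus IL-4C calls were kept. The counts were then 12 higher and 5 lower (3078 and 2939 of all genes), and 11 higher and 7 lower (2473 and 2954 of all genes). Without Thio 1, Thio versus PBS gave 13 higher and 15 lower (6118 and 7758 of all genes). Other scalings moved the split as well. With each array's median in place of its 75th percentile the 2 comparisons gave 8 and 11, and 6 and 17, with quantile normalization 17 and 7, and 15 and 12, and in the authors' deposited values 13 and 8, and 7 and 17. Over all genes these settings gave 3243 higher and 4991 lower, and 4498 and 10336, with median scaling, 4453 and 5073, and 5647 and 8761, with quantile normalization, and 3816 and 5597, and 4689 and 10201, in the authors' deposited values. With median scaling the median difference over all genes was -0.23 and -0.55 in these comparisons, against -0.09 and -0.21 in the main fit.

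**Figure D4:**
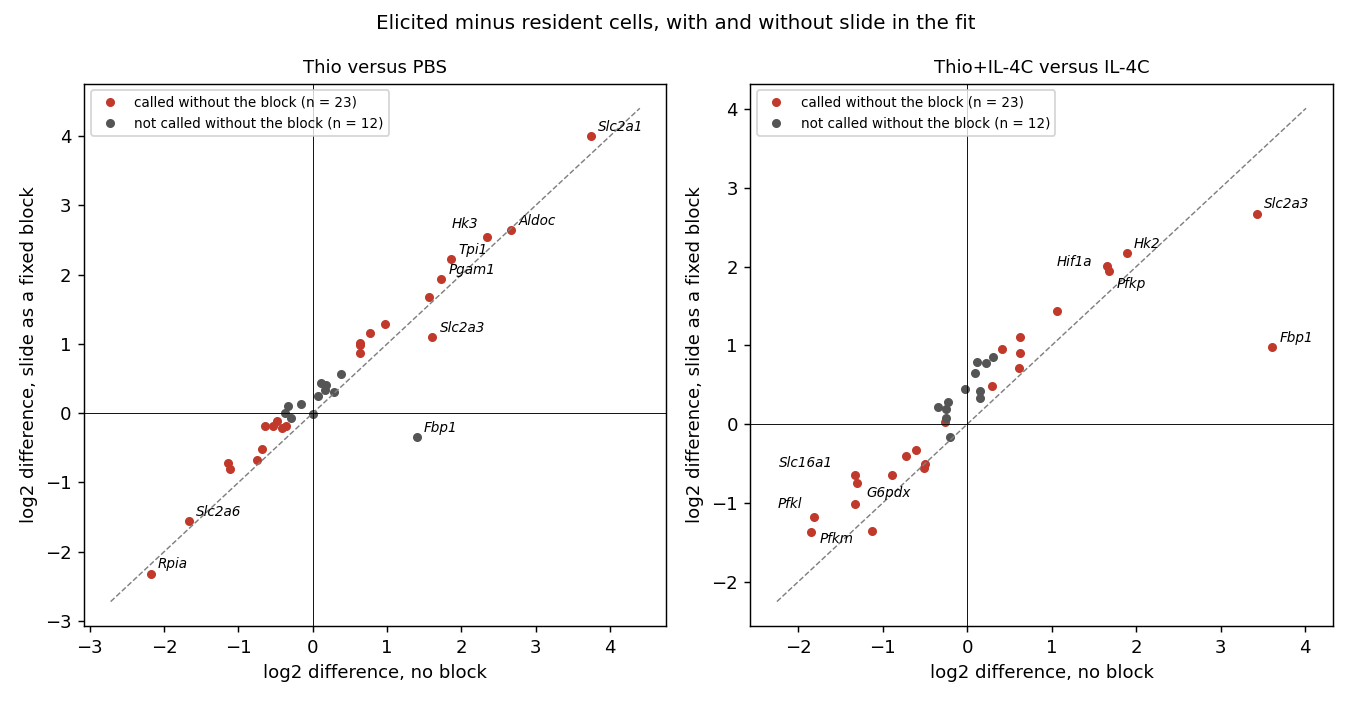
Log2 difference of the 35 genes without (horizontal axis) and with (vertical axis) slide as a fixed block, for Thio versus PBS (left) and Thio+IL-4C versus IL-4C (right); red marks the 23 genes called without the block in each panel and the dashed line marks equal values. The slide term is the gap between Thio 1 and the other 2 Thio arrays. Most points lie a little above the line. Fbp1 moves from 1.40 to -0.35 on the left and from 3.61 to 0.98 on the right.

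Among the Thio versus PBS calls that were made with and without the block, the largest rises were in Slc2a1, Aldoc, Hk3, Tpi1 and Pgam1 and the largest falls in Rpia and Slc2a6. Aldoc was higher by 2.67 ± 0.24 (6.37-fold; adjusted p = 3.8e-06; 2.64 with the block), Tpi1 by 1.86 ± 0.16 (3.62-fold; adjusted p = 2.8e-06) and Pgam1 by 1.73 ± 0.11 (3.32-fold; adjusted p = 1.6e-07). The triose and payoff genes that IL-4C raised in resident cells were thus also higher after thioglycollate alone; both comparisons share the PBS arrays. Rpia was lower by -2.18 ± 0.10 (4.52-fold; adjusted p = 2.0e-08; -2.32 with the block). In Thio+IL-4C versus IL-4C calls of this kind were made for Slc2a3 (10.8-fold higher; 2.67 with the block), Hk2 (3.69-fold; 2.17) and Hif1a (3.16-fold; 2.01). Below the phosphofructokinases Pfkm and Pfkl in size, Taldo1 (2.51-fold lower), Slc16a1 (2.51-fold), G6pdx (2.46-fold) and Rpia (2.18-fold) were called lower, at -1.01, -0.64, -0.74 and -1.35 with the block.

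Some calls ended with slide as a block. In Thio versus PBS Gpi1, Gapdh, Eno1, Slc16a1 and Taldo1 moved toward 0 (-0.11, -0.19, -0.18, -0.19 and -0.21 with the block), and Hk1 went from -0.68 to -0.52 (adjusted p = 0.065). In Thio+IL-4C versus IL-4C the differences of Aldoc, Ldhb and Pfkfb4 were as large or larger with the block (-0.55, 0.71 and 0.48) at adjusted p of 0.39, 0.056 and 0.16, while those of Hk1, Pdk1 and Tkt were smaller (-0.65, -0.40 and -0.33). For Fbp1 the difference of 3.61 became 0.98 (adjusted p = 0.18). Its difference in Thio versus PBS was 1.40 (adjusted p = 0.07), 2.28 without Thio 1 (adjusted p = 9.7e-05) and -0.35 with slide as a block (adjusted p = 0.59). For Pgam1 the small difference of -0.26 in Thio+IL-4C versus IL-4C became 0.03. Without Thio 1, Pdk1, G6pdx, Pgls and Rpe were also called lower in Thio versus PBS (-0.39, -0.55, -0.30 and -0.56).

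Genes that lead into or out of these pathways were counted in lists, and no list was tested against other genes. The counts are to be read against 16.9% of all genes called higher and 15.3% lower in IL-4C versus PBS, and 16.2% and 23.1% in Thio+IL-4C versus Thio, and several are near these shares. The 23 other isoforms and entry genes measured had 7 called higher and 2 lower in IL-4C versus PBS, and 2 higher and 9 lower in Thio+IL-4C versus Thio. The fructose transporter gene Slc2a5 rose by 3.15 in resident cells (8.87-fold; adjusted p = 1.7e-04). It was well above background on 9 of 14 arrays and on none of Thio+IL-4C, so no difference is given there. Eno2, the neuronal enolase, was 57.7-fold higher in Thio than PBS (5.85; adjusted p = 1.5e-07) and fell when IL-4C was added (-2.34; adjusted p = 1.3e-04).

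Of 13 genes for pyruvate entry into mitochondria 7 rose and 1 fell in IL-4C versus PBS, and 3 rose and 5 fell in Thio+IL-4C versus Thio. Pcx, pyruvate carboxylase, rose by 1.64 in resident cells (3.13-fold; adjusted p = 2.2e-04), and Dld, a pyruvate dehydrogenase subunit, by 1.24 (adjusted p = 1.2e-06). Mpc1, a subunit of the mitochondrial pyruvate carrier, fell in elicited cells by -1.42 (2.68-fold; adjusted p = 8.1e-06), and Pdk2 by -2.29 (4.88-fold; adjusted p = 8.4e-07). The serine branch leaves glycolysis at phosphoglycerate. Of its 9 genes 6 rose and 1 fell in resident cells and 6 rose and none fell in elicited cells. Mthfd2, a mitochondrial folate enzyme, rose by 3.86 and 4.45 (14.5-fold and 21.9-fold; adjusted p = 3.2e-07 and 8.9e-08), and Phgdh, the first enzyme of the branch, rose by 4.23 in elicited cells (18.7-fold; adjusted p = 7.4e-07), with an interaction of 3.07 (adjusted p = 2.3e-04). Among 14 genes of glycogen and hexosamine metabolism 7 rose and 1 fell in resident cells, with the phosphoglucomutases Pgm1 and Pgm2 at 1.55 and 1.53, and 6 rose and 5 fell in elicited cells. Of 12 other pentose phosphate and NADPH genes 4 rose and 1 fell in resident cells, led by H6pd and Rbks (1.18 and 1.11), and 3 rose and 2 fell in elicited cells.

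Of 19 further genes of the HIF pathway 6 rose and 4 fell in IL-4C versus PBS, and 9 rose and 1 fell in Thio+IL-4C versus Thio. Egln1, a prolyl hydroxylase that marks HIF for destruction, fell in resident cells by -1.62 (3.08-fold; adjusted p = 1.0e-05), where among HIF targets Ankrd37 and Car9 rose by 3.10 and 2.09 and P4ha1, a collagen prolyl hydroxylase, fell by -1.63 (adjusted p = 7.0e-06). Epas1, the HIF-2 subunit gene, fell in elicited cells by -2.68 (6.40-fold; adjusted p = 2.3e-06), where Hif1a rose. The effects of IL-4C on Epas1 and Egln1 differed between the settings, with interactions of -4.02 and 2.99 (adjusted p = 3.9e-06 and 3.0e-06). Of 13 regulators of glucose sensing and growth 3 rose and 3 fell in IL-4C versus PBS, and 6 rose and 1 fell in Thio+IL-4C versus Thio. Txnip, an inhibitor of glucose uptake, fell in resident cells (-1.81; adjusted p = 2.5e-05). Irf4, a factor of the interleukin 4 response, rose in elicited cells (2.91; adjusted p = 1.2e-08), with an interaction of 2.82 (adjusted p = 6.8e-07). Ppargc1b, a coactivator of mitochondrial genes, rose in both settings (3.05 and 2.50).

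Other measures moved with the same comparisons. Of 12 proliferation genes 11 rose and none fell in IL-4C versus PBS, and 10 rose and none fell in Thio+IL-4C versus Thio. Their summed signal, in multiples of the array's 75th percentile, was 20.7 to 27 in PBS, 149 to 186 in IL-4C, 30.1 to 34.1 in Thio and 50.1 to 66.3 in Thio+IL-4C. Of 10 markers of resident peritoneal macrophages 7 fell in IL-4C versus PBS and 9 fell and 1 rose in Thio versus PBS, with sums of 815 to 899 in PBS and 57.9 to 61.3 in Thio. Of 9 neutrophil markers measured 4 rose and 1 fell in Thio versus PBS and 3 rose in Thio+IL-4C versus Thio, with sums of 3.81 to 4.69, 3.25 to 6.56, 8.64 to 17.2 and 14 to 21.1 in PBS, IL-4C, Thio and Thio+IL-4C. Of 10 B cell markers 5 fell in IL-4C versus PBS, with sums of 10.9 to 19.2 in PBS and 3.53 to 3.99 in IL-4C. Of 7 general macrophage markers 4 fell in IL-4C versus PBS and 5 in Thio versus PBS, with sums of 716 to 832 in PBS, 240 to 249 in IL-4C and 221 to 303 in Thio. Lyz2, the brightest of them in PBS, had levels of 8.39 to 8.61 there and 0.77 to 1.63 in IL-4C, and weighs much in that fall. Between PBS and IL-4C the sort markers moved little: Adgre1 was 6.44 to 6.61 in PBS and 6.21 to 6.35 in IL-4C. Itgam was 5.86 to 6.10 in PBS and 5.72 to 5.86 in IL-4C. Both were lower in elicited cells. Adgre1 was 4.68 to 4.77 in Thio and 3.44 to 3.70 in Thio+IL-4C, and Itgam 4.05 to 4.32 and 4.10 to 4.32. Of 7 markers of monocyte-derived cells 5 rose and 1 fell in Thio+IL-4C versus Thio, with sums of 39.3 to 42.2 in Thio and 184 to 225 in Thio+IL-4C. In IL-4C versus PBS 2 of them rose and 3 fell, with sums of 22.2 to 35.5 in PBS and 164 to 189 in IL-4C. Chil3 weighs most in the sums with IL-4C, at levels of 7.12 to 7.32 in IL-4C and 7.18 to 7.54 in Thio+IL-4C. Its levels were 0.79 to 1.57 in PBS and 4.08 to 4.44 in Thio. In Thio versus PBS 5 of 9 mesothelial and stromal markers rose and none fell, with sums of 1.74 to 1.93 in PBS and 3.05 to 4.9 in Thio, and 5 of 6 mast cell markers fell, with sums of 6.21 to 7.62 and 1.9 to 4.41. The background in Thio versus PBS was 20.2% of all genes higher and 24.3% lower. It was 16.9% and 15.3% in IL-4C versus PBS, and 16.2% and 23.1% in Thio+IL-4C versus Thio. On each of the 14 arrays a probe of every measured neutrophil marker but Ngp, and of every B cell marker but Blk, was well above background. That probe need not be the one whose level entered the sums. The neutrophil marker Ly6g was not measured. The part of cell division, of the cell types that these markers stand for and of array brightness in the changes of the glycolytic and pentose phosphate genes was not tested.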

How the data were processed

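Each of the 14 samples was measured on 1 single-colour Agilent array. The deposited scanner files hold processed intensities of 62976 spots, made with Feature Extraction (11.0.1.1 per the file headers; 11.5 per the submitters' processing notes, which also name limma). The authors' deposited value table holds log2 expression values, whose background correction and normalization are not given in the sources used here; it served as an alternative.

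Control spots (3671 per array) and spots marked as outliers were left out, and spots of a probe were averaged. The main values are log2 intensities minus log2 of the array's 75th percentile. Probes were kept if well above background on at least 3 arrays. Of 55681 probes 27235 had a gene name through their RefSeq accession (assembly GRCm38.p6) and 28446 had none here, and the brightest kept probe stood for a gene. limma 3.58.1 in R 4.3.3 fitted 1 mean per group to all 14 arrays for 20342 genes, and Benjamini-Hochberg adjusted p under 0.05 was called. The fit was tested on simulated data. Alternatives were other scalings, background corrections (normexp with offset 50 on median signals), filters, probe rules, array weights, slide or replicate number as a block, and leaving out each array.

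Samples with the same replicate number did not deviate together, so arrays were not paired. The number of arrays limits the precision. All 35 genes are named whatever their call. From each other pathway list the called genes with the strongest changes, up to 2 in each direction per comparison, could be named, and the text describes some of these. The genes and lists were chosen with earlier results of these data known.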

Additional observations from a re-analysis of the deposited data

Results flagged for a closer look

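The effect of IL-4C differed between resident and elicited cells, by the interaction test in limma with Benjamini-Hochberg adjustment, for 24 of the 35 genes. The effect was more positive in elicited cells for Fbp1 (2.21), Slc2a3 (1.83), Slc2a6 (1.83), Hk2 (1.73), Ldhb (1.36), Pfkp (1.30), Rpia (1.05), Hif1a (1.02), Gpi1 (0.57) and Eno1 (0.51). For Ldhb this is a smaller fall. It was more negative there for Aldoc (-3.18), Slc2a1 (-2.68), Pgam1 (-1.99), Hk3 (-1.72), Tpi1 (-1.55), Pfkfb4 (-1.26), Slc16a3 (-1.12), G6pdx (-0.93), Taldo1 (-0.91), Pfkm (-0.73), Slc16a1 (-0.68), Tkt (-0.67), Pdk3 (-0.49) and Pgd (-0.48). For Hk3, Pfkm, Slc16a1, G6pdx and Taldo1 the effect in elicited cells was a fall.

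Slc2a6 in Thio+IL-4C had 1 array far from the others, at 4.38 against 3.47 to 3.52, a gap of 0.945 of the group's range, above the 95% critical value of Dixon's test for 4 arrays. It was 1 of 69 groups of 4 arrays tested, and chance alone gives about 1 in 20.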

How the results depend on the processing

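Of the 3815 alternative values for the 35 genes 3472 kept their side of the threshold, 144 passed it only under the alternative, 178 no longer passed it and 21 reversed. A value counted as reversed if its sign changed and it was called in the main fit or under the alternative. Changes of sign between values that were both not called are among the 3472. In IL-4C versus PBS 19 of 23 calls held under every alternative, in Thio versus PBS 13 of 23, in Thio+IL-4C versus Thio 17 of 23, in Thio+IL-4C versus IL-4C 12 of 23, and in the interaction 18 of 24. Leaving out 1 array gave 18 higher and 3 to 4 lower, 12 to 13 and 8 to 15, 13 to 20 and 7, 10 to 12 and 10 to 14, and 8 to 12 and 12 to 15 in these comparisons. In the same order, all genes gave 2939 to 3181 higher and 2448 to 2798 lower, then 2856 to 6118 and 3353 to 7758. Next came 2783 to 4219 and 4160 to 5495, and 5263 to 5564 and 8039 to 8304. The interaction gave 2147 to 3845 and 3511 to 4643 of all genes. The 11 genes called lower in Thio versus PBS became 7 with quantile normalization, with or without normexp, 6 with only the 2 groups fitted, 5 with slide as a fixed block, 6 with it as a random block and 6 within slide 1. The 11 called higher in Thio+IL-4C versus IL-4C became 6 with median scaling and 7 in the authors' table, and the 12 called lower became 7 with slide as a fixed block. Counts over all genes with median scaling, quantile normalization, the authors' table and the fixed slide block are given above and moved as well.

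Values that reversed were these. For Gapdh in IL-4C versus PBS they were 0.53 with quantile normalization, 0.51 with normexp and quantile normalization and 0.59 for the mean of probes. In Thio versus PBS quantile normalization without and with normexp gave 0.10 and 0.08 for Gpi1, 0.24 and 0.20 for Gapdh, 0.30 and 0.31 for Eno1, and 0.21 and 0.17 for Taldo1. In Thio+IL-4C versus IL-4C Pfkfb4 was -0.04 with median scaling and -0.04 in the authors' table, Pgam1 0.03 with slide as a block, and Ldha 0.27 with a probe detected on all 14 arrays. In the interaction Pfkfb4 was 0.07 for the mean of probes. There Gapdh was -0.50 and -0.45, and Eno1 -0.02 and -0.10, with quantile normalization without and with normexp, and Eno1 was -0.04 in the authors' table. Among other pathway genes Mlxipl was 0.22 for the mean of probes in IL-4C versus PBS and 0.10 with the 14-array filter in Thio+IL-4C versus IL-4C, and Slc2a5, not well above background in Thio+IL-4C, 0.09 in the authors' table in Thio+IL-4C versus Thio. With slide fixed, random and within slide 1 Hkdc1 was 0.35, 0.01 and 0.35 in Thio versus PBS. In Thio+IL-4C versus IL-4C Tktl1 was 0.35 and Mycn -0.09 with slide fixed. The cause was not tested.

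The replicate numbers do not pair the arrays: 19 same-numbered pairs had correlations of deviations from -0.446 to 0.367 (median -0.00551), and 2 of 14 arrays correlated best with their own number. With replicate number as a block the counts higher and lower were 18 and 3, 12 and 11, 14 and 7, 10 and 12, and 8 and 12. Counts over all genes with this block are not given here, so these have no background beside them.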
